A study of Arabidopsis thaliana with 16 samples.

Results

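Small heat shock proteins are chaperones that work without ATP: they bind other proteins as these begin to unfold and hold them in a form that the ATP-driven HSP70 and HSP100 chaperones can refold. Plants carry a large family of them, with members in the cytosol and in most organelles, and their genes are usually low in unstressed leaves and strongly induced by heat and by several other stresses, oxidative stress among them. Heat shock transcription factors drive that induction. Here 6 genes of the family were followed across doses of hydrogen peroxide (H2O2). HSP17.6B (AT2G29500) and HSP17.6C (AT1G53540) encode cytosolic proteins, HSP22 (AT4G10250) a protein of the endoplasmic reticulum, HSP23.5 (AT5G51440) and HSP26.5 (AT1G52560) proteins of the mitochondrion, and HSP15.7 (AT5G37670) a peroxisomal protein.

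The genes were chosen by name, as members of 1 family, with earlier results of these data known, so a comparison of their calls with the share of all probe sets called is not that of an unselected set. Each had 1 probe set annotated to it alone, so the 6 genes are 6 of the 22746 probe sets on the array that are not controls, and all 6 were among the 13140 probe sets with a log2 value of at least 5 on at least 2 of 16 arrays, over which the tests were run. The array annotation lists HSP22 under the name HSP22.0 and the other 5 by locus tag only. Cytosolic small heat shock proteins of this family resemble each other in sequence, and whether a probe set also caught RNA of a relative was not tested.

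RNA came from whole 12-day-old wild-type Arabidopsis seedlings of ecotype Col, grown in liquid medium. All seedlings, controls included, spent 1 h in darkness, then 30 min with H2O2 or with medium alone, and then 1 h, still dark and with the H2O2 left in place, with either 1 µM epi-brassinolide (BL), a growth-promoting steroid hormone, or the same amount of its ethanol solvent. H2O2 stood at 0, 1, 5, 25, 50 or 100 mM, giving 12 groups on 16 Affymetrix arrays: 3 arrays with BL and 3 with solvent at 0 mM, and 1 array with BL and 1 with solvent at every higher dose. The series asks how oxidative stress and the hormone act on each other. Nothing in the labels says whether replicates were separate cultures, so what a p-value measures is the spread among arrays, which may be technical. In RNA from whole seedlings, fewer cells of a type and less RNA per cell cannot be told apart.

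Values are log2 signals as deposited, and the lowest value on every array was 2.12. The 10 arrays with H2O2 correlated at 0.943 to 0.995 with one another over all probe sets kept. Solvent replicate 3 at 0 mM stood apart from the other 0 mM arrays. It correlated with them at 0.816 to 0.907, while they correlated at 0.958 to 0.990 among themselves. With the H2O2 arrays it correlated at 0.857 to 0.890, above its correlation with every other 0 mM array but solvent replicate 1. The main results that use it are given with and without it below. RCA (Rubisco activase, a leaf marker and the single matched gene of 12 on the shoot list) lay between 13.70 and 14.76 on all arrays. Of the 10 genes on the root list, 3 were matched. PYK10, a root glucosidase, lay between 12.00 and 14.13, and both RCA and PYK10 were lowest on solvent replicate 3. The root hair genes EXPA7 and EXPA18 lay at 2.23 to 2.28 and 2.13 to 2.27 on the H2O2 arrays, at 2.28 and 2.18 on solvent replicate 3, and at 3.80 to 5.34 and 3.89 to 4.72 on the other 0 mM arrays. None of the 13 seed and pollen markers could be matched. Listed genes were matched by symbol, which found 1 of 24 small heat shock protein genes although all 6 described here have probe sets, so a gene that was not matched may still be on the array.

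Both cytosolic genes were at their highest on the 2 arrays at 1 mM H2O2. HSP17.6B read 10.51, 10.71 and 10.81 with BL and 9.10, 8.10 and 10.15 with solvent at 0 mM. At 1, 5, 25, 50 and 100 mM it read 13.60, 12.77, 11.63, 11.59 and 10.94 with BL, and 13.49, 12.59, 11.61, 11.11 and 10.998 with solvent. Every H2O2 array was above all 6 arrays at 0 mM, by little at 100 mM. HSP17.6C read 9.05, 9.36 and 9.27 with BL and 6.78, 6.25 and 9.29 with solvent at 0 mM. From 1 to 100 mM it read 13.22, 12.69, 11.72, 11.45 and 10.87 with BL, and 13.37, 12.22, 11.52, 10.88 and 11.04 with solvent. Its H2O2 arrays were likewise all above the 0 mM arrays, and solvent replicate 3 lay among the BL arrays.

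Among the organellar genes the course at high dose differed. HSP22, of the endoplasmic reticulum, read 8.33, 8.90 and 8.48 with BL and 5.11, 5.22 and 7.40 with solvent at 0 mM. From 1 to 100 mM it read 12.09, 11.07, 9.64, 9.83 and 9.27 with BL, and 12.21, 10.70, 9.59, 9.38 and 9.33 with solvent, above the 0 mM arrays throughout. HSP23.5, of the mitochondrion, read 8.71, 9.17 and 9.24 with BL and 7.36, 6.97 and 9.34 with solvent at 0 mM. From 1 to 100 mM it read 11.97, 11.07, 9.63, 9.19 and 8.19 with BL, and 12.26, 10.67, 9.17, 8.78 and 8.61 with solvent. At 1 and 5 mM both arrays were above every 0 mM array, and at 25 mM the BL array alone was; at 50 and 100 mM they lay among the 0 mM arrays, and the BL array at 100 mM was below all 3 BL arrays at 0 mM. HSP26.5, also mitochondrial, read 4.83, 6.26 and 6.23 with BL and 2.72, 3.24 and 4.64 with solvent at 0 mM, the solvent values near the lowest the arrays gave. From 1 to 100 mM it read 10.54, 10.004, 8.85, 8.77 and 8.29 with BL, and 10.59, 9.39, 8.49, 8.31 and 8.43 with solvent. No H2O2 array came within 2 log2 units of a 0 mM array for this gene.

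The peroxisomal gene HSP15.7 read 9.43, 9.55 and 9.86 with BL and 7.28, 7.09 and 9.11 with solvent at 0 mM. From 1 to 100 mM it read 12.44, 11.75, 10.09, 10.38 and 9.33 with BL, and 12.61, 11.17, 10.37, 9.94 and 9.57 with solvent. Its arrays from 1 to 50 mM were all above the 0 mM arrays, and at 100 mM they were among them. Over the 6 genes, both arrays at a dose lay above all 6 arrays at 0 mM for 6, 6, 5, 5 and 4 genes from 1 to 100 mM, where 12.3%, 12.9%, 13.6%, 13.4% and 13.3% of all probe sets did so. All 10 H2O2 arrays were above all 6 at 0 mM for 4 of the genes (HSP17.6B, HSP17.6C, HSP22 and HSP26.5) and for 4.21% of all probe sets.

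**Figure D1:**
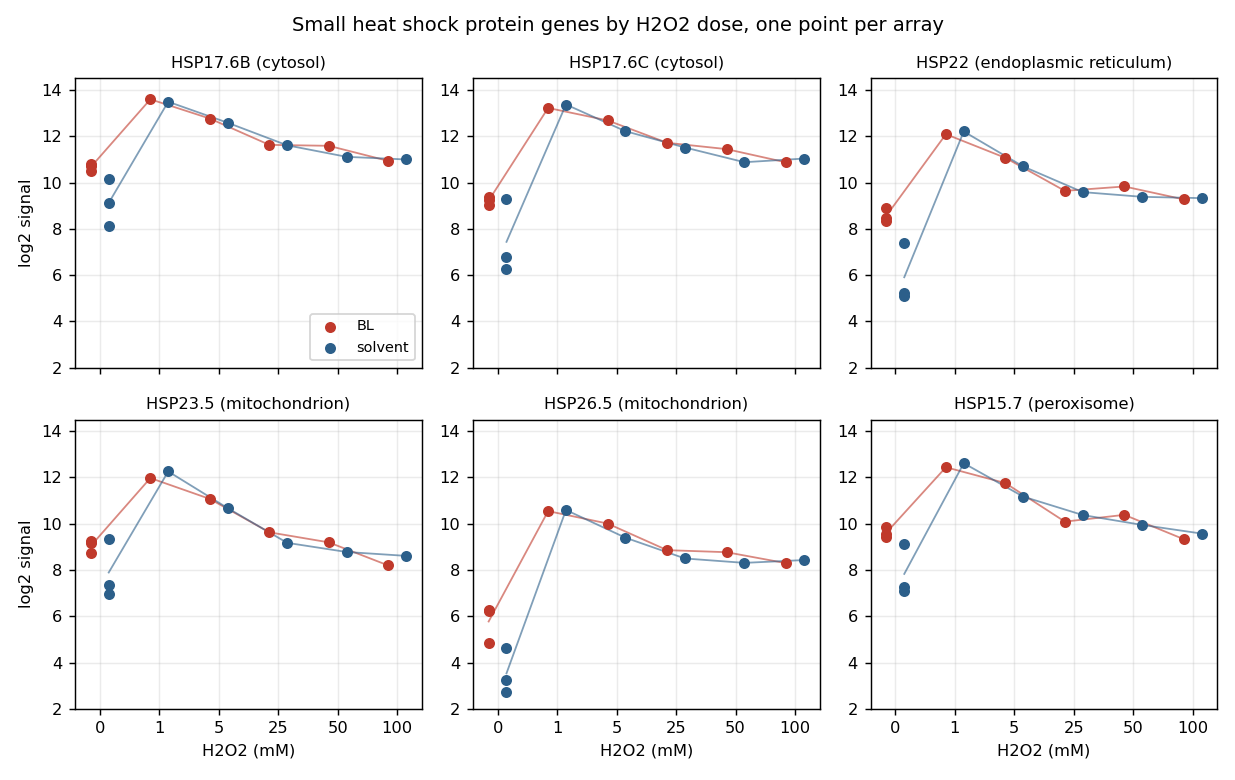
Log2 signal of the 6 genes against H2O2 dose in mM, 1 panel per gene, with 1 point per array (BL left in red, solvent right in blue) and lines through the group means. All panels peak at 1 mM and decline towards 100 mM, and the solvent points at 0 mM spread further than the BL points.

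The 6 genes rose at the lowest dose whatever their compartment. At 1 mM against 0 mM, in a limma model of the 16 arrays that gave each dose its own mean and added a term for BL, all 6 were called higher at a Benjamini-Hochberg adjusted p under 0.05, where 9.6% of all probe sets were. HSP26.5 changed by 5.91 on the log2 scale (SE 0.66, 95% interval 4.47 to 7.36, adjusted p = 0.00015). Its solvent values at 0 mM are near the lowest signal of the arrays, so no fold is given for it and its place among the 6 is uncertain. HSP17.6C changed by 4.97 (31.3-fold, SE 0.69, adjusted p = 0.000708) and HSP22 by 4.91 (30.1-fold, SE 0.76, adjusted p = 0.00133). HSP15.7, HSP17.6B and HSP23.5 stood at 3.80, 3.65 and 3.65 (14.0-, 12.5- and 12.5-fold, SE 0.59, 0.50 and 0.54). The intervals of all 6 overlap, and differences in size between genes were not tested. The model holds the BL response equal at all doses. For the 6 genes BL minus solvent was 1.16 to 2.66 at 0 mM, and the mean BL response under H2O2 was 0.06 to 0.25. Each change is an average over BL and solvent arrays, and any such difference enters the error. Leaving out any single array left all 6 called. Without solvent replicate 3 at 0 mM the changes were 6.02 (HSP26.5), 5.26 (HSP17.6C), 5.06 (HSP22), 3.97 (HSP15.7), 3.89 (HSP23.5) and 3.78 (HSP17.6B), and 2407 of the 13140 probe sets were called higher.

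The median change of the 6 genes was 4.36, 3.21, 2.05, 1.91 and 1.57 from 1 to 100 mM, against medians of -0.10, -0.10, -0.05, -0.03 and -0.01 over all probe sets tested. At 5 mM all 6 were again called higher (9.75% of all probe sets), by 2.40 (HSP23.5) to 5.05 (HSP26.5). They were 2.65 (HSP23.5) to 5.15 (HSP26.5) without solvent replicate 3, all called, where 2381 of 13140 probe sets were. With only 1 of the 2 arrays at 5 mM the fit called fewer of the 6 genes, whichever array was left out. The share of all probe sets called in those fits is not given here, so the drop cannot be read as particular to the 6 genes.

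At 25 mM and above fewer of the 6 genes were called, and differences between genes were not tested. The fit is the same, so each change is again an average over BL and solvent arrays. At 25 mM 3 were called higher, where 8.19% of all probe sets were: HSP17.6B (1.72, adjusted p = 0.0386), HSP17.6C (3.29, adjusted p = 0.00908) and HSP26.5 (4.02, adjusted p = 0.00253). HSP22 (2.38, adjusted p = 0.0551), HSP15.7 (1.51, adjusted p = 0.107) and HSP23.5 (0.93, adjusted p = 0.273) did not pass. At 50 mM HSP17.6C (2.83, adjusted p = 0.0197) and HSP26.5 (3.88, adjusted p = 0.00319) were called, 2 of 6 where 7.4% of all were. The same pair was called at 100 mM, at 2.62 (adjusted p = 0.0263) and 3.71 (adjusted p = 0.00408), where 8.24% of all were. There HSP22 stood at 2.06 (adjusted p = 0.0907), HSP17.6B at 1.07 (adjusted p = 0.176), HSP15.7 at 0.73 (adjusted p = 0.448) and HSP23.5 at -0.07 (95% interval -1.25 to 1.11, adjusted p = 0.954). These limma counts at high dose turn on single arrays. Without solvent replicate 3 at 0 mM they were 5, 5 and 3 at 25, 50 and 100 mM, where 2232, 2085 and 2325 of the 13140 probe sets were called higher. The genes then called besides those named above were HSP22 and HSP15.7 at 25 mM (2.53 and 1.67), HSP17.6B, HSP22 and HSP15.7 at 50 mM (1.58, 2.52 and 1.60) and HSP22 at 100 mM (2.21). HSP23.5 stood at 1.17, 0.76 and 0.18 from 25 to 100 mM in that fit and was not called. Leaving out the BL or the solvent array of the dose itself left 1 array there, and the counts were then lower than with all arrays. The share of all probe sets called in those fits is not given here, so the drop cannot be read as particular to the 6 genes. HSP17.6B at 25 mM also lost its call without either array at 1, 5 or 50 mM and without replicate 1 at 0 mM of either hormone state, and HSP22 was called at 25 and 50 mM without BL replicate 2 at 0 mM.

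The share of the 1 mM change, on the log2 scale, that was still there at 100 mM was 62.7% for HSP26.5, 52.8% for HSP17.6C, 42.0% for HSP22, 29.3% for HSP17.6B, 19.1% for HSP15.7 and -1.81% for HSP23.5. Mitochondrial genes stand at both ends of that order, and the cytosolic genes are 2nd and 4th in it. The solvent values of HSP26.5 at 0 mM are near the lowest signal of the arrays, so its share and its place in the order are uncertain. The shares themselves move with single arrays, down without the solvent array at 100 mM and up without the BL array. In those fits the array left at 100 mM is corrected by a BL term common to all doses, to which the 0 mM arrays contribute. BL minus solvent at 100 mM itself was only -0.41 to -0.06, so the movement does not show that the 100 mM arrays disagree. Across all left-out arrays they ran between 51.7% and 73.6% for HSP26.5, 41.9% and 63.7% for HSP17.6C, and 28.7% and 55.3% for HSP22. For HSP17.6B they ran between 17.802% and 40.8%, for HSP15.7 between 4.83% and 33.5%, and for HSP23.5 between -16.2% and 12.6%. With solvent replicate 3 left out they were 63.3% (HSP26.5), 55.4% (HSP17.6C), 43.7% (HSP22), 31.7% (HSP17.6B), 22.4% (HSP15.7) and 4.54% (HSP23.5). By hormone state the shares were lower with BL than with solvent. They were 52.8% against 69.3% for HSP26.5, 41.2% against 60.6% for HSP17.6C and 19.96% against 54.3% for HSP22. For HSP17.6B they were 8.92% against 43.0%, for HSP15.7 -10.1% against 36.4% and for HSP23.5 -29.1% against 16.5%. Each share is measured from the 0 mM mean of its state, which was 1.16 to 2.66 higher with BL. From 1 to 100 mM BL minus solvent was only -0.41 to 0.61. A higher 0 mM mean lowers such a share even where the H2O2 values are equal, so the lower shares alone do not show a BL response under H2O2. The order of the 6 genes was the same with each of the 16 arrays left out and in both states. Only the arrays at 0, 1 and 100 mM enter a share, so leaving out any other array could not change the order. All 5 comparisons share the 0 mM arrays, and neither the shares nor their order have a test.

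**Figure D2:**
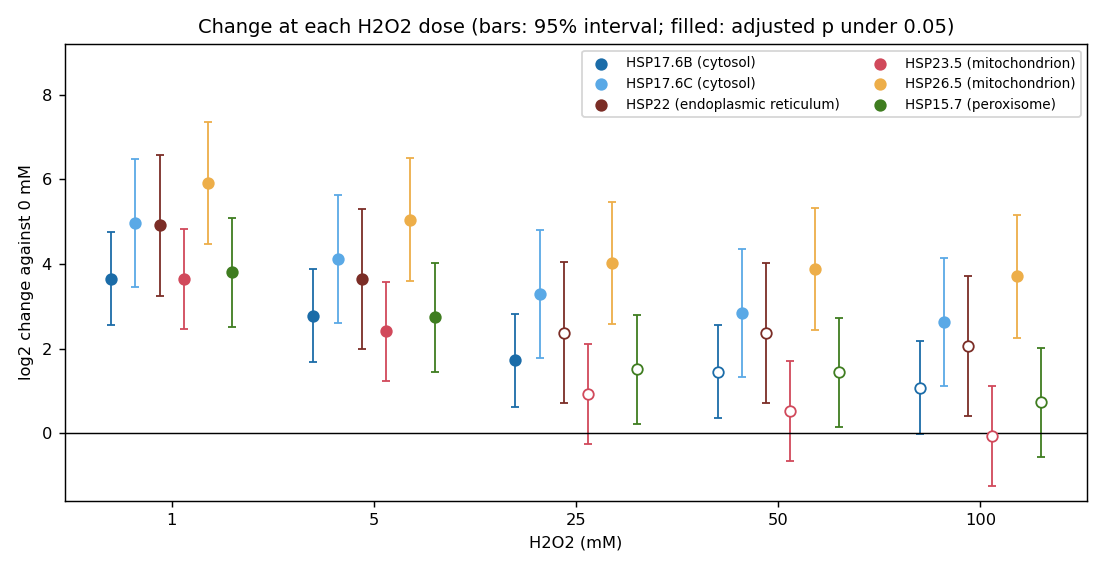
Log2 change against 0 mM at each H2O2 dose in mM for the 6 genes, with 95% intervals from the limma fit and filled points where the adjusted p was under 0.05. All 6 genes are filled at 1 and 5 mM, 3 at 25 mM, and HSP17.6C and HSP26.5 alone of the 6 at 50 and 100 mM.

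Once H2O2 was present, every gene of the 6 fell as the dose went up. A slope over log2(1 + dose in mM) was fitted to the 10 arrays from 1 to 100 mM, which leaves out the 0 mM arrays and solvent replicate 3 with them, and is given as the fitted log2 change from 1 to 100 mM. All 6 were called lower, where 16.2% of all probe sets were, and all 6 were called with any 1 of the 10 arrays left out. HSP23.5 fell by 3.70 (SE 0.20, 95% interval -4.15 to -3.25, limma adjusted p = 2.72e-06). HSP15.7 fell by 2.96 (SE 0.22), HSP22 fell by 2.84 (SE 0.26), HSP17.6B fell by 2.58 (SE 0.13) and HSP17.6C fell by 2.37 (SE 0.17). HSP26.5 had the shallowest slope of the 6 and fell by 2.26 (SE 0.20, 95% interval -2.71 to -1.81, limma adjusted p = 2.67e-05). The intervals of the mitochondrial genes HSP23.5 and HSP26.5 do not overlap; that difference was not tested.

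Between neighbouring doses the calls came at the low end. In a limma model of the same 10 arrays with a mean for each dose, added after the data were seen, 5 mM against 1 mM was lower for all 6 (5.21% of all probe sets), by -0.85 (HSP17.6C) to -1.27 (HSP22). At 25 mM against 5 mM 5 of the 6 were called lower (2.21% of all), by -1.02 (HSP26.5) to -1.47 (HSP23.5), and HSP17.6C stood at -0.84 (adjusted p = 0.0613). At 50 mM against 25 mM the changes were -0.45 to -0.01 and limma called none of the 6 and none of all probe sets, with 1 of the 6 (3.96% of all) at an unadjusted p under 0.05. At 100 mM against 50 mM they were -0.71 to -0.18, again with none called of the 6 or of all, and with 3 of the 6 (10.2% of all) at an unadjusted p under 0.05. The calls at 5 and 25 mM rest on 2 arrays a dose: leaving out 1 array gave between 0 and 6 calls in either comparison, and without the filter on low values there were 0 in both. In order of means, 5 genes ran 1, 5, 25, 50, 100 and then 0 mM, while for HSP23.5 100 mM came below 0 mM.

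RNA quality moved along the same doses. The difference of log2 signal between 3′ and 5′ probe sets of 3 control transcripts, which grows as RNA is degraded or incompletely copied, averaged 0.324 ± 0.115 (SD, n = 6) at 0 mM and 0.392, 0.357, 0.522, 0.538 and 0.666 from 1 to 100 mM (means of 2 arrays). Its part in the decline of the 6 genes was not tested. On the same arrays RCA, the leaf marker, had a fitted change of 0.15 from 1 to 100 mM (limma adjusted p = 0.252) and the root marker PYK10 rose by 0.94 (limma adjusted p = 4.64e-05).

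Without H2O2 the genes were higher with BL than with solvent on most arrays, but none passed the test. BL minus solvent was 2.66 for HSP22 (SE 0.63), 2.24 for HSP26.5 (SE 0.62), 1.78 for HSP15.7 (SE 0.55) and HSP17.6C (SE 0.77), 1.56 for HSP17.6B (SE 0.50) and 1.16 for HSP23.5 (SE 0.62). In limma each of the 6 had an adjusted p of 0.502, so 0 of 6 were called, where 3 of 13140 probe sets (0.0228%) were in either direction. At an unadjusted p under 0.05 there were 4 of the 6 and 9.23% of all. All 3 BL arrays were above all 3 solvent arrays for 4 of the 6, where 14.4% of all probe sets were; HSP17.6C and HSP23.5 overlapped through solvent replicate 3.

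That solvent array decides the outcome. It was above the mean of the other solvent arrays for every gene of the 6, by 1.55 (HSP17.6B), 2.77 (HSP17.6C), 2.24 (HSP22), 2.17 (HSP23.5), 1.66 (HSP26.5) and 1.93 (HSP15.7). Without it the BL arrays were above the solvent arrays for 6 of 6 (18.3% of all), and limma called 4 of 6 higher with BL, where 0.342% of all were. HSP22 stood at 3.41 (adjusted p = 0.0079), HSP17.6C at 2.71 (adjusted p = 0.0123), HSP15.7 at 2.43 (adjusted p = 0.0112) and HSP23.5 at 1.88 (adjusted p = 0.0401). HSP26.5 (2.79, adjusted p = 0.116) and HSP17.6B (2.07, adjusted p = 0.0737) did not pass. The spread also differs by group as the arrays stand: the SD over 3 arrays was 0.15 to 0.82 with BL and 0.99 to 1.62 with solvent over the 6 genes.

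With H2O2 present the BL and solvent arrays were close. The mean BL response over the 5 doses was 0.06 to 0.25 for the 6 genes, with 95% intervals such as -0.58 to 1.08 for HSP26.5, and limma called none of the 6 and none of all probe sets. At an unadjusted p under 0.05 there were 0 of the 6 and 0.928% of all. The sign changed with dose. BL was higher for 6 of 6 genes at 5 mM (0.18 to 0.61) and at 50 mM (0.42 to 0.57), and for 5 of 6 at 25 mM (-0.29 to 0.46). It was lower for 5 of 6 at 1 mM (-0.29 to 0.11) and for 6 of 6 at 100 mM (-0.41 to -0.06). Each of these is 1 array against 1, and 6 genes that move together on an array are not 6 observations of the hormone.

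**Figure D3:**
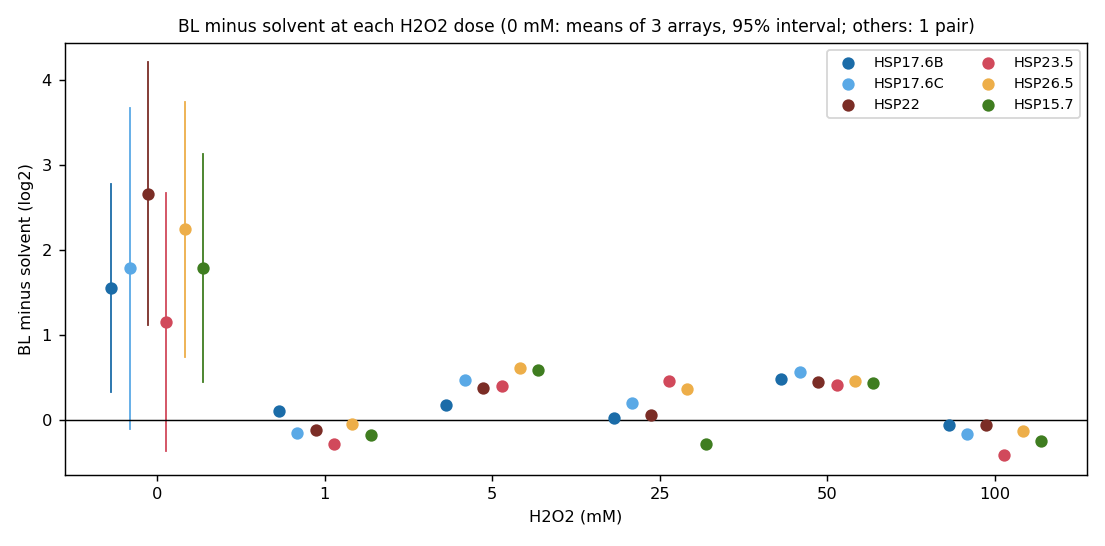
BL minus solvent on the log2 scale at each H2O2 dose in mM for the 6 genes; at 0 mM the points are differences of means of 3 arrays with 95% intervals, and at other doses differences of 1 array each. The 0 mM points lie between 1.16 and 2.66 and those from 1 to 100 mM between -0.41 and 0.61.

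The BL response under H2O2 minus that at 0 mM was negative for all 6, between -2.52 (HSP22) and -1.04 (HSP23.5). In limma the adjusted p ran between 0.240 and 0.367, so none of the 6 were called, where 8 of all probe sets (0.0609%) were; at an unadjusted p under 0.05 there were 4 of the 6 and 16.2% of all. Without solvent replicate 3 all 6 were called lower, at -3.27 (HSP22) to -1.76 (HSP23.5), where 0.632% of all were. Without solvent replicate 2 in its place HSP22 alone of the 6 was called, where 13.6% of all were in either direction. The slope over dose was much the same in both states: -3.68 to -2.29 with BL and -3.72 to -2.23 with solvent. BL minus solvent slopes were -0.12 to 0.10, with 95% intervals of about 1 log2 unit to either side (HSP26.5 -1.02 to 0.91, HSP23.5 -0.93 to 1.00). Limma called no slope difference among the 6 or among all probe sets, with 0 of the 6 and 3.36% of all at an unadjusted p under 0.05.

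Each dose was also set against 0 mM within a hormone state, 1 array against 3, in 1 limma fit of all 16 arrays with a mean for each of the 12 groups. The error in that fit, with 4 residual degrees of freedom, comes from the 0 mM arrays of both states, solvent replicate 3 included, so both states share it. The changes within the BL arrays stayed positive at low dose: 2.82 (HSP15.7) to 4.77 (HSP26.5) at 1 mM and 2.02 (HSP23.5) to 4.23 (HSP26.5) at 5 mM. Within the solvent arrays they were 4.37 (HSP23.5) to 7.06 (HSP26.5) at 1 mM and 2.78 (HSP23.5) to 5.86 (HSP26.5) at 5 mM. At 100 mM they ran between -0.85 (HSP23.5) and 2.52 (HSP26.5) with BL, and between 0.72 (HSP23.5) and 4.89 (HSP26.5) with solvent. With BL the fit called 0 of the 6 at every dose, where 0.54%, 0.342%, 0.236%, 0.145% and 0.19% of all probe sets were called higher from 1 to 100 mM. With solvent it called HSP26.5 (7.06, limma adjusted p = 0.0299) and HSP22 (6.30, limma adjusted p = 0.0478) at 1 mM, where 0.83% of all were, and none of the 6 at 5, 25, 50 and 100 mM, where 0.244%, 0.0837%, 0.0685% and 0.129% of all were.

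The 6 genes moved together from array to array. Over the 16 arrays the 15 pairwise Pearson correlations lay between 0.785 (HSP26.5 and HSP23.5) and 0.986 (HSP15.7 and HSP17.6B), with a median of 0.957. Within the 10 H2O2 arrays they were 0.976 to 0.992, and within the 6 arrays at 0 mM 0.871 to 0.989. They were 0.819 to 0.987 over the 15 arrays without solvent replicate 3 and 0.881 to 0.992 over the 5 arrays at 0 mM. The lowest pair over all arrays is that of the mitochondrial genes, with or without that array. These are descriptions: the arrays share doses, and genes measured on the same arrays are not independent.

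Of the 7034 other probe sets with 1 gene, 29 (0.412%) had a median correlation with the 6 genes of at least 0.9 over the 16 arrays, against a median of -0.137 over all of them. The 10 highest were AT1G54050 (0.977), AT1G30070 (0.964), AT2G20560 (0.958), FES1A (0.951), AT5G35320 (0.946), AT1G14130 (0.946), AT4G23493 (0.942), AR791 (0.939), AT3G07090 (0.938) and AT1G26800 (0.937). These 10 had median correlations of 0.937 to 0.978 without solvent replicate 3, and 5 of them were still among the 10 highest, with 37 probe sets (0.526%) at 0.9 or more. AT1G54050 averaged 9.98 at 0 mM, 13.96 at 1 mM and 11.62 at 100 mM. The closest gene to HSP17.6C and to HSP22 was AT1G54050 (r 0.987 for each). It was AT2G20560 for HSP17.6B (r 0.984), AT1G30070 for HSP15.7 (r 0.984), AT2G19310 for HSP23.5 (r 0.985) and AT4G33660 for HSP26.5 (r 0.971).

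Small heat shock proteins hand their clients to the larger chaperones and the proteins that serve them. Of 37 partner genes listed, 12 were matched to a probe set of 1 gene, and all 12 were tested. At 1 mM 5 of 12 were called higher and 0 lower (9.6% and 10.5% of all probe sets), with a median change of 0.67 where the median over all was -0.10. FES1A, which protects cytosolic HSP70 from degradation, rose by 4.47 (limma adjusted p = 1.39e-05). HOP3, of the family that links HSP70 to HSP90, rose by 3.20 (limma adjusted p = 0.000977) and HOP2 by 1.09 (limma adjusted p = 0.0205). HSA32, needed for long-lasting heat tolerance, rose by 2.69 (limma adjusted p = 0.000141), and the HSP90-binding peptidyl-prolyl isomerase ROF2 by 2.49 (limma adjusted p = 0.00611). SGT1A, an HSP90 co-chaperone, stood at 1.22 (limma adjusted p = 0.0764).

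At 5 mM 4 of the 12 partners were called higher (FES1A, HOP3, ROF2 and HSA32) and ERDJ2A lower, where 9.75% of all probe sets were higher and 13.5% lower. The numbers higher and lower were 2 and 1 at 25 mM, 1 and 0 at 50 mM, and 1 and 1 at 100 mM, where 8.19%, 7.4% and 8.24% of all were higher and 7.66%, 7.08% and 7.26% lower. Without solvent replicate 3 at 0 mM the numbers higher and lower were 6 and 1 at 1 mM, 6 and 1 at 5 mM, 3 and 1 at 25 mM, 2 and 1 at 50 mM, and 2 and 1 at 100 mM. Of the 13140 probe sets 2407, 2381, 2232, 2085 and 2325 were then higher and 3574, 3603, 2696, 2499 and 2709 lower. Over the 10 H2O2 arrays 6 of 12 fell with dose, at -2.995 (FES1A), -2.46 (HOP3), -2.35 (ROF2), -2.34 (HSA32), -1.28 (SGT1A) and -1.18 (HOP2), where 16.2% of all probe sets fell. HOP1 (0.41) and ERDJ3B (0.48) rose, where 22.2% of all did. ERDJ2A, ERDJ3B and HOP1 were picked for naming after their values were seen. With BL against solvent at 0 mM limma called 0 of the 12, with or without solvent replicate 3. Of all probe sets 0.0228% were called in either direction with it, and 0.342% higher and 0.0533% lower without it. At shares this low, 0 of 12 does not show a lack of response to BL.

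HSP70-2, a cytosolic HSP70 and the single gene matched of 47 large chaperones listed, rose by 1.88 at 1 mM (limma adjusted p = 0.0421) and fell by 1.81 from 1 to 100 mM. BL minus solvent at 0 mM was -1.01 for this gene (limma adjusted p = 0.521). Without solvent replicate 3 these were 2.30 at 1 mM and -0.22 for BL minus solvent (limma adjusted p = 0.819). Of 20 genes listed for other H2O2 responses, 2 were matched: GSTU25, a glutathione transferase, rose by 6.77 and the zinc finger factor ZAT10 by 4.03 at 1 mM (6.83 and 4.60 without solvent replicate 3). The reference gene UBC21 stood at -0.06 (limma adjusted p = 0.783). Heat shock factors (24 listed) and organellar chaperonins (15 listed) were matched to no probe set of 1 gene and were not analysed here.

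**Figure D4:**
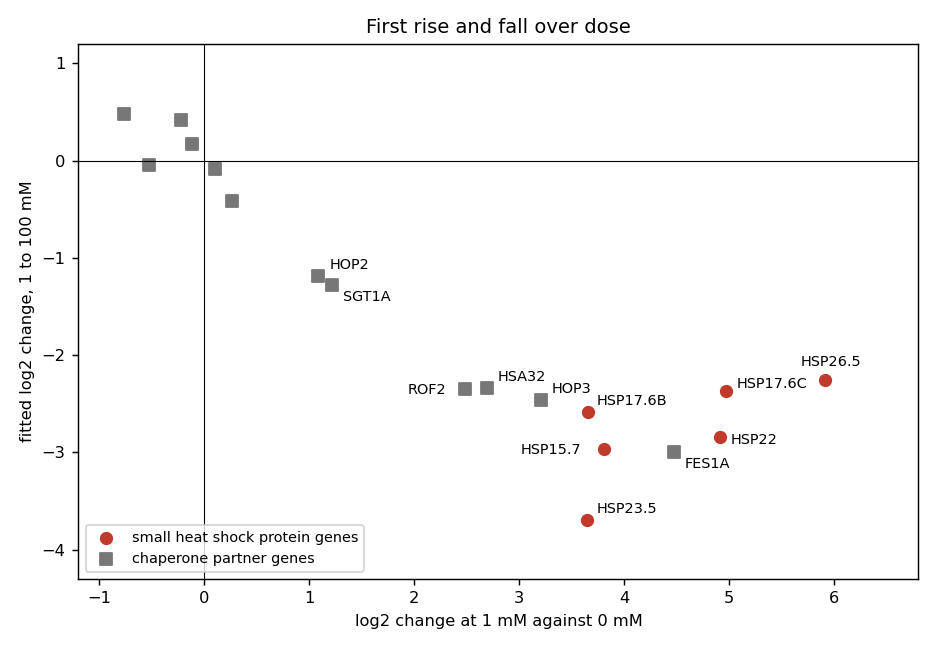
Fitted log2 change from 1 to 100 mM (vertical axis) against log2 change at 1 mM over 0 mM (horizontal axis) for the 6 small heat shock protein genes (red circles) and 12 chaperone partner genes (grey squares). Both axes use the arrays at 1 mM, and the 6 genes lie at 3.65 to 5.91 across and -3.70 to -2.26 down.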

How the data were processed

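The authors deposited log2 signals, 1 for every probe set on each array. The submitters' processing notes name GCRMA as the method; its version and settings are not given in the sources used here. GCRMA corrects background by probe sequence and normalizes across arrays, so weak signals pile up near a common lowest value. No scaling was added. Of 22810 entries, 64 were controls; 13513 of the rest had 1 gene symbol, 503 several and 8730 none, and 13436 of the first matched RefSeq names of assembly TAIR10.1. Tests used limma 3.58.1 (lmFit, eBayes) in R 4.3.3 with statmod 1.5.0, with Benjamini-Hochberg adjustment over the 13140 probe sets kept. The additive dose fit has 9 residual degrees of freedom, the 0 mM fit 4, and the fit of BL terms 8. Arrays have no read depth; their number limits the precision. The 6 genes and the gene lists were chosen with earlier results of these data known. Of a list, at most 6 genes are named, those with the largest change at 1 mM, with FES1A, except that ERDJ2A, ERDJ3B and HOP1 were added after their values were seen; list names were matched by symbol or synonym, ignoring case and a leading AT. Member names were tied to locus tags by standard nomenclature. Alternatives were other filters, renormalization, centring, eBayes with trend, array weights, left-out arrays, a replicate block, single hormone states and first replicates. Tests were checked on simulated data with independent noise, the same H2O2 effect at every dose and a BL effect. No slope, neighbouring-dose or interaction effect and no outlying array were simulated, so finding such effects was not checked. Values without solvent replicate 3 for gene lists and correlations, and the shares by left-out array and hormone state, were added after the data were seen.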

Additional observations from a re-analysis of the deposited data

How the results depend on the processing

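Counts here are of the 6 genes called by limma. The share of all probe sets called is given here for fits without a filter only, so other changed counts cannot be read as particular to these genes. Quantile normalization, median centring, eBayes with trend, a stricter filter and log2(dose) kept every count within 1.5 times of that reported. Without a filter, 1 gene was called at 50 mM and 1 at 100 mM, and 0 in both 5 mM against 1 mM and 25 mM against 5 mM. Array weights, whose estimation did not fully converge, gave 6 for BL at 0 mM, 6 at 25 mM, 5 at 50 mM and 6 for the change of the BL response. Contrasts within a state, from a fit of all 16 arrays whose error both states share, gave 0 at each dose with BL and 2, 0, 0, 0 and 0 from 1 to 100 mM with solvent. First replicates alone at 0 mM gave 6, 5 and 4 at 25, 50 and 100 mM. With 1 array left out at a time, counts ran from 6 to 6 at 1 mM, 2 to 6 at 5 mM, 1 to 5 at 25 mM, 0 to 5 at 50 mM, 0 to 3 at 100 mM, 0 to 4 for BL at 0 mM, 0 to 6 for the change of the BL response and for 5 mM against 1 mM and 25 mM against 5 mM, and 6 to 6 for the slope; 0 to 0 were called for BL under H2O2, the slope difference and the other neighbouring doses. HSP23.5 at 100 mM, at -0.07 in the report, ran from -0.59 (without the solvent array at 100 mM) to 0.46 with 1 array left out; it turned to 0.72 within the solvent state, 0.37 with first replicates, 0.18 without solvent replicate 3, 0.03 and 0.05 without BL replicates 2 and 3 at 0 mM, and 0.46 without the BL array at 100 mM; HSP15.7 at 100 mM turned to -0.29 within the BL state. The cause was not tested. Of 1062 values of single genes under an alternative, 944 kept their direction and side of the threshold. Some alternatives could not change an estimate: leaving out an array at 1, 5, 25 or 50 mM left HSP23.5 at 100 mM at -0.07. The 944 are therefore not a measure of robustness. Same-numbered BL and solvent replicates deviated together with r of 0.183, 0.108 and -0.066, and differently numbered ones with r of -0.233 to 0.076. With 3 arrays a group and solvent replicate 3 apart, this cannot decide whether the numbers pair the arrays. With the replicate number as a block limma called 0 of 6. Each gene had 1 probe set, so no other could be tried. Above 0 mM no group has a replicate, and HSP26.5 without H2O2 is limited by its signal over background.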
